A study of Mus musculus with 78 samples.

Results

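The genes described here are 31 mouse genes that fold, modify or dispose of proteins in the endoplasmic reticulum (ER), or that signal in its unfolded protein response (UPR). They were taken from the count table by symbol, and 30 of the 31 had a row among its 14695 genes, while Sel1l was not analysed here. By role they were the chaperones and co-chaperones Hspa5, Hsp90b1, Hyou1, Dnajb9, Dnajb11, Dnajc3, Sdf2l1, Manf and Creld2, the lectin chaperones Calr and Canx, the protein disulfide isomerases Pdia3, Pdia4, Pdia6 and P4hb, and the prolyl isomerases Fkbp2 and Fkbp11. The stress sensors Ern1 and Atf6 and the transcription factor Xbp1, the degradation genes Herpud1, Syvn1, Edem1, Derl1, Derl2 and Os9, and the translocon and oligosaccharyltransferase genes Sec61a1, Sec61b, Ssr1 and Ostc made up the rest. All 30 passed the filter on low counts in every fit.

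All groups were CD8+ T cells of C57BL/6J mice, taken from lymph node and spleen and used on day 3 of activation. One experiment withdrew nutrients, and cells spent 3 h in medium lacking arginine (No Arginine), branched-chain amino acids (No BCAA), glucose (No Glucose), glutamine (No Glutamine) or methionine (No Methionine), each set against complete medium (Control). The other exposed cells for 3 h to halofuginone, a prolyl-tRNA synthetase inhibitor, Torin1, an mTOR kinase inhibitor, or 4EGI-1, which blocks the binding of eIF4E to eIF4G, each set against the solvent DMSO. Total RNA and RNA pooled from the polysome fractions 9 to 13 of a sucrose gradient of the same lysate were sequenced, with 3 libraries per group and kind of RNA, 60 in all. In the labels the RNA type is polyA for the drug experiment and total for the nutrient one, and the experiments were tested apart.

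Proteins that enter the ER are folded with the help of Hspa5 (BiP), an HSP70 chaperone, and Hsp90b1 (GRP94), an HSP90 chaperone, while disulfide isomerases pair their cysteines and the lectins Calr and Canx hold their sugar chains. When unfolded protein builds up, 3 membrane sensors respond. Ern1 (IRE1) splices Xbp1 mRNA into the form that encodes the active factor, Atf6 is cut to release a transcription factor, and Eif2ak3 (PERK) phosphorylates eIF2alpha, which lowers translation in general and raises that of Atf4. The kinase Gcn2, which senses uncharged tRNA, converges on the same eIF2alpha and Atf4. Xbp1 and Atf6 act on chaperone and degradation genes through a promoter element called the ER stress response element (ERSE), while Atf4 and its partner Ddit3 (CHOP) act on amino acid supply and stress genes. Counts per gene do not tell spliced from unspliced Xbp1 mRNA and do not show the cutting of Atf6 protein.

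The ERSE is shown first because it is the sequence by which many of these genes are known. Promoter windows of 250 bases before to 50 bases after the annotated start, from RefSeq on the build GRCm38.p6, were found for 25 of the 31 members. The 25 include Sel1l, whose counts were not analysed here. Hyou1, Manf, Atf6, Derl1, Sec61a1 and Ostc had no window. The ERSE (CCAAT, 9 bases of any kind, CCACG, on either strand) was present in 8 of the 25, which is 32% of members with a window, against 0.119% of 32851 windows of all genes. The 8 were Hspa5, Hsp90b1, Dnajc3, Creld2, Calr, Canx, Pdia6 and Syvn1. Here and below the member share counts genes, 3 of which had several windows, while the share of all genes counts windows. ERSE-II (ATTGG, 1 base, CCACG), which shares CCACG with the ERSE, was in Dnajb11 and Herpud1, or 8%, against 0.0365% of all windows. The core of the Xbp1 element TGACGTGG was in none of the 25, against 0.676% of all windows. The C/EBP-ATF element of Atf4 targets, TGATGNAA, was in Herpud1 alone, which is 4% against 3.97% of all windows. A match of letters is not a binding site, and these windows were annotated on another build than that of the counts. The stretches below set the elements side by side on each gene's own strand, with the matched bases in capitals, so that the constant ends and the varying gap can be read. CGTGG followed by ATTGG is the same element read from the other strand. Hsp90b1 held the element at 2 places.
Hspa5, chr2:34772013-34772055, plus strand: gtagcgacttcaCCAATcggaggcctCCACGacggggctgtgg
Hsp90b1, chr10:86705626-86705668, minus strand: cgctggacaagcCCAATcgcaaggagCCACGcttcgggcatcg
Hsp90b1, chr10:86705521-86705563, minus strand: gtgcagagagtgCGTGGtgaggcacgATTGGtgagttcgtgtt
Dnajc3, chr14:118937815-118937857, plus strand: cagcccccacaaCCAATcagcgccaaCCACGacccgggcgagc
Creld2, chr15:88819508-88819550, plus strand: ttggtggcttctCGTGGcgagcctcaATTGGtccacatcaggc
Calr, chr8:84847063-84847105, minus strand: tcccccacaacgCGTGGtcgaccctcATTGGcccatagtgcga
Canx, chr11:50325788-50325830, minus strand: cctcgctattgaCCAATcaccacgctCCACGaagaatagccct
Pdia6, chr12:17266479-17266521, plus strand: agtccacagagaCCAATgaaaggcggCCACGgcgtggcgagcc
Syvn1, chr19:6046520-6046562, plus strand: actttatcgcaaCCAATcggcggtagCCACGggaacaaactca

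The promoter of Herpud1 is printed for a longer stretch, the 150 bases before its start, because Herpud1 had the largest total RNA change among the members in each deprivation and its window alone held both ERSE-II and the C/EBP-ATF element. The first capitals are the C/EBP-ATF element read from the other strand, and the later ones are the ends of ERSE-II.
Herpud1, chr8:94386279-94386428, plus strand: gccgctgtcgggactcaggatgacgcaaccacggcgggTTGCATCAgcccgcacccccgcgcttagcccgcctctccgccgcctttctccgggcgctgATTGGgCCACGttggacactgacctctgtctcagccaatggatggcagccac

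The deposited counts summed to between 15144663 and 30637485 reads in the nutrient total RNA libraries and 29917770 to 54272886 in their polysome libraries. The drug libraries held 17506526 to 23099949 reads of total RNA and 17846266 to 24929556 of polysome RNA. The labels do not say whether replicates came from separate cultures or animals, so p-values measure the spread between these libraries only, and in bulk RNA fewer cells of a type and less RNA per cell cannot be told apart. All 6 CD8 T cell markers (Cd8a, Cd8b1, Cd3e, Cd3d, Cd3g and the granzyme gene Gzmb) were present. They summed to between 5413 and 21190 CPM (counts of a gene relative to its library's total) over all libraries, and single markers were not examined. In total RNA their sum was 5413 to 6405 CPM without glutamine and 5992 to 6514 without glucose, against 8137 to 9492 in Control, so that neither group overlapped Control. The sum was 7610 to 7889 CPM without BCAA, below Control too, and overlapped Control without methionine (6850 to 8674) and arginine (8750 to 9032). On polysomes it was 7386 to 10320 CPM without glutamine, glucose, methionine or BCAA and 13060 to 15080 without arginine, against 11660 to 14980 in Control. Of 21 markers of other cell types, 5 had a row, and the B cell, CD4 and platelet sums stayed at or under 19.1 CPM; the plasma cell, myeloid, NK, plasmacytoid dendritic and red cell markers were not analysed here. Mitochondrial ribosomal RNA made up 4.98% of counts in No Arginine total RNA replicate 2, against 0.878% to 2.14% in the other nutrient total RNA libraries.

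Levels below are CPM scaled by TMM (trimmed mean of M-values, edgeR), changes are log2 fold changes ± their standard error from edgeR's quasi-likelihood test, and a gene was called at a Benjamini-Hochberg adjusted p under 0.05 over all genes tested. The 5 deprivations share the 3 Control libraries of each kind of RNA and the 3 drugs share the 3 DMSO libraries, so the comparisons are not independent of one another. Levels of different genes are not compared, since no transcript lengths were used.

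Most members held a larger share of polysome RNA than of total RNA in cells kept in complete medium. In Control cells the ratio of polysome to total RNA was called higher for 20 members and lower for 4, where 37.4% and 28% of all genes were called higher and lower. Syvn1, the ubiquitin ligase of ER degradation, stood highest at 0.90 ± 0.16, followed by Dnajb11, a co-chaperone of BiP, at 0.73 ± 0.09 and Pdia3, the isomerase that works with the lectins, at 0.65 ± 0.08. Ostc, an oligosaccharyltransferase subunit, stood lowest at -0.84 ± 0.11, with Sec61b, a small subunit of the translocon channel, at -0.64 ± 0.12, the secreted factor Manf at -0.56 ± 0.12 and Hspa5 at -0.33 ± 0.12. With Control replicate 2 left out, Hspa5 was no longer called, at -0.30 (adjusted p = 0.08). In DMSO cells 18 members were called higher and 5 lower, against 28.3% and 30.9% of all genes. There the prolyl isomerases Fkbp11 and Fkbp2 reached 2.2 ± 0.23 and 1.72 ± 0.19, and Dnajb9, a BiP co-chaperone also known as ERdj4, was lowest at -0.93 ± 0.20. Hspa5 was called higher in DMSO cells, a call that was lost without DMSO replicate 3, at 0.49 (adjusted p = 0.064). Its ratios in Control and DMSO cells come from experiments with a different RNA type in the labels. They were not compared in a test.

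Some members changed in total RNA in each deprivation, in both directions without BCAA, glucose, glutamine or methionine and upward only without arginine, where 26 of the 30 had no call. Herpud1, a membrane anchor of the ER degradation complex, and Xbp1 were called higher in each of the 5 comparisons, while most chaperone, disulfide isomerase and lectin genes were slightly lower or not called. Without arginine 4 members were called higher and 0 lower, against 5.09% and 4.14% of all genes. Without BCAA the counts were 4 and 11, against 16.4% and 13.7%. Without glucose they were 7 and 5, against 21.7% and 19.1%. Without glutamine they were 4 and 18, against 20.3% and 18.6%, and without methionine 6 and 16, against 19.5% and 15.6%. The median change of the members was -0.28 without glutamine and -0.22 without methionine, where that of all genes was -0.01 and 0.02. It was 0.05 without arginine, -0.15 without BCAA and -0.01 without glucose, where all genes had medians of 0.01, 0.00 and 0.02. The 7 of 30 higher without glucose lay close to the share of all genes, and the 18 of 30 lower without glutamine lay above it. The CD8 marker sum was also below Control in total RNA without glutamine, glucose and BCAA, and its part in these counts was not tested.

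**Figure D1:**
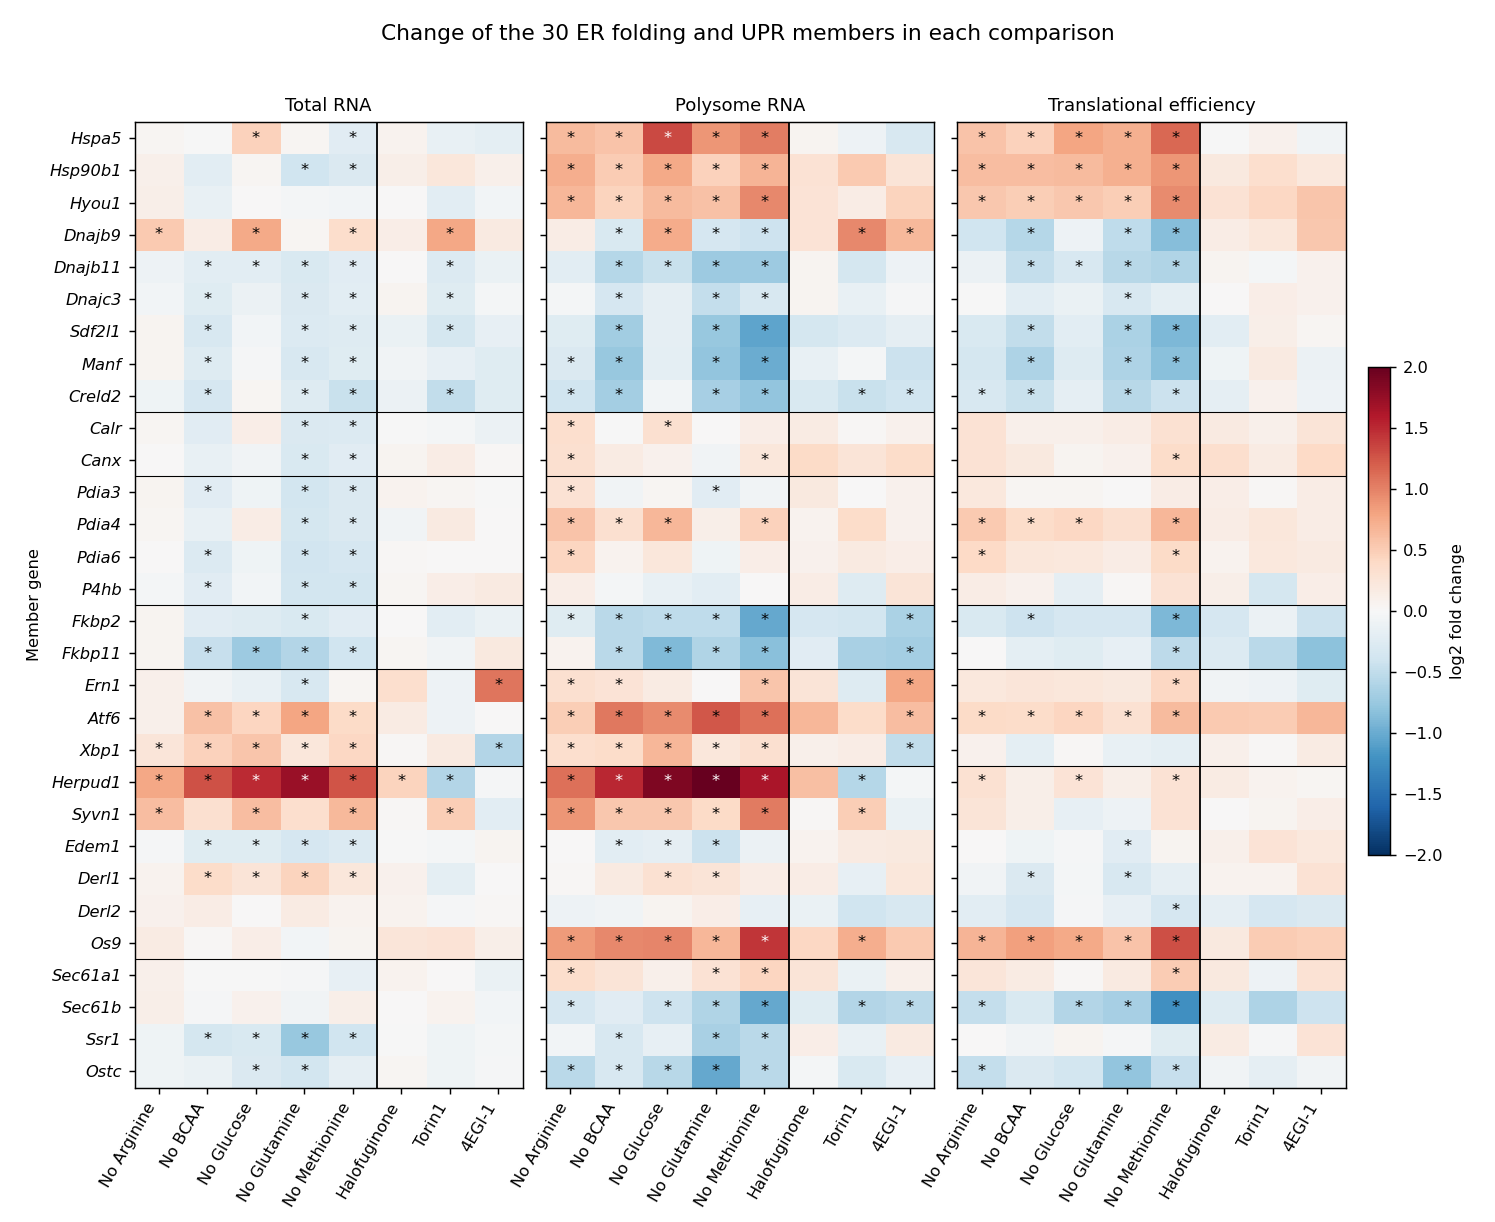
Heat map of the log2 fold change of the 30 members (rows, grouped by role with thin lines) in total RNA, polysome RNA and translational efficiency, each condition against its own control, with nutrient deprivations left of the vertical line and drugs right of it. Red is higher in the deprived or treated cells, blue is lower, an asterisk marks an adjusted p under 0.05, and the row of Herpud1 is the darkest red in all 5 deprivations of the total RNA panel.

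Among the degradation genes, Herpud1 measured 396, 408 and 396 CPM in No Glutamine libraries, 348, 339 and 341 in No Glucose, 285, 306 and 292 in No BCAA, 261, 296 and 309 in No Methionine and 200.5, 212 and 209 in No Arginine, against 119.9, 122 and 122 in Control. Every deprived library lay above every Control library, and the Control libraries lay within a few CPM of one another. The change was 1.72 ± 0.06 without glutamine (a 3.30-fold level, adjusted p = 4.5e-16), 1.5 ± 0.06 without glucose, 1.28 ± 0.06 without BCAA, 1.25 ± 0.06 without methionine and 0.77 ± 0.06 without arginine. Derl1, a channel component of the degradation complex, rose by 0.44 without glutamine, 0.37 without BCAA, 0.26 without glucose and 0.23 without methionine. Edem1, a mannosidase-like factor that hands glycoproteins to degradation, fell in the same 4 comparisons, by values between 0.23 and 0.34 on the log2 scale. Syvn1 measured 24.4, 21.3 and 20.4 CPM without methionine, 18.7, 23.0 and 22.6 without glucose and 22.9, 26.9 and 15.0 without arginine, against 13.5, 15.9 and 12.6 in Control. The No Arginine libraries overlapped Control and the No Methionine and No Glucose libraries did not. Its calls were 0.65 ± 0.15, 0.62 ± 0.15 and 0.62 ± 0.15 for methionine, glucose and arginine, and the arginine call was lost without Control replicate 1 or 3 or No Arginine replicate 1 or 2, with values of 0.45 to 0.59 (adjusted p = 0.067 to 0.091). Derl2 and the lectin Os9, which recognises misfolded glycoproteins, were called in no deprivation in total RNA.

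Of the sensors, Atf6 total RNA measured 207, 216 and 222 CPM without glutamine, 185, 183 and 191 without BCAA, 167, 171 and 168 without glucose, 176, 147 and 163 without methionine and 136, 126 and 138 without arginine, against 122, 127 and 126 in Control. Only the No Arginine libraries overlapped Control. The changes were 0.79 ± 0.07, 0.58 ± 0.07, 0.44 ± 0.07 and 0.38 ± 0.07 for glutamine, BCAA, glucose and methionine, and 0.10 ± 0.07 without arginine, which was not called (adjusted p = 0.39). Xbp1, the factor that Ern1 activates by splicing, measured 309, 322 and 329.6 CPM without glucose, 306, 299 and 299.5 without BCAA, 262, 319.9 and 295 without methionine, 257, 249.8 and 268 without arginine and 242, 271 and 258 without glutamine, against 213, 216 and 229 in Control. No deprived library overlapped Control, and the rises were 0.55 ± 0.07, 0.46 ± 0.07, 0.41 ± 0.07, 0.24 ± 0.07 and 0.23 ± 0.07. The glutamine call was lost without No Glutamine replicate 2, at 0.19 (adjusted p = 0.055). The arginine call was lost without Control replicate 1 or 2 or No Arginine replicate 1 or 3, at 0.21 to 0.24 (adjusted p = 0.086 to 0.12). Ern1 itself was called in 1 comparison, lower without glutamine at -0.31 ± 0.08, with 47.4, 45.8 and 47.7 CPM against 58.9, 61.7 and 54.6 in Control. In the others its change lay between -0.15 and 0.11.

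Among the chaperones, Hspa5 total RNA was 1935, 2004 and 2104 CPM without glucose and 1109, 1359 and 1317 without methionine, against 1338, 1497 and 1571 in Control. The No Glucose libraries all lay above Control and the No Methionine libraries overlapped it. Without glucose Hspa5 rose by 0.46 ± 0.08 (adjusted p = 6.4e-05). Without methionine the value was -0.22 ± 0.08 (adjusted p = 0.033), a call that was lost without Control replicate 2, Control replicate 3 or No Methionine replicate 1, at -0.15 to -0.21 (adjusted p = 0.092 to 0.17). Without arginine, BCAA and glutamine its value was at most 0.04 in either direction, with no call. Dnajb9 measured 19.8, 22.5 and 23.4 CPM without glucose, 17.4, 21.1 and 18.2 without arginine and 14.3, 18.7 and 16.8 without methionine, against 12.2, 13.5 and 13.3 in Control. It rose by 0.75 ± 0.11, 0.53 ± 0.11 and 0.35 ± 0.11 in these 3 and was at 0.16 and 0.04 without BCAA and glutamine, with no call. Dnajb11 was called lower in all but No Arginine, by between 0.21 and 0.30. Dnajc3, which inhibits PERK, Sdf2l1, a partner of Dnajb11, Manf and Creld2 were lower without BCAA, glutamine and methionine, the lowest being Creld2 without methionine at -0.45 ± 0.07. The Sdf2l1 call without BCAA was lost without No BCAA replicate 3, at -0.25 (adjusted p = 0.079). Hsp90b1 fell by 0.40 without glutamine and 0.29 without methionine. Hyou1, the nucleotide exchange factor of BiP, was called in none.

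The folding enzymes were lower without glutamine and methionine. All 4 disulfide isomerases and both lectins fell in each of these 2 comparisons, with values between -0.23 (Canx without methionine) and -0.38 (Pdia6 without glutamine). Without BCAA, Pdia6, P4hb and Pdia3 fell, by 0.28, 0.23 and 0.22. Without arginine and without glucose no member of either group was called. The prolyl isomerase Fkbp11 measured 10.2, 9.48 and 9.30 CPM without glucose, 9.70, 11.1 and 11.2 without glutamine, 11.2, 11.3 and 12.3 without BCAA and 9.99, 13.1 and 13.0 without methionine, against 13.4, 17.4 and 17.1 in Control. All lay below the lowest Control library, and the falls were -0.73 ± 0.12, -0.58 ± 0.11, -0.46 ± 0.11 and -0.40 ± 0.11. Fkbp2 was called lower without glutamine alone, at -0.30 ± 0.11. Ssr1, a subunit of the translocon-associated complex, fell most among the members without glutamine, to 304, 347 and 338 CPM, against 509, 575 and 591 in Control, a change of -0.76 ± 0.07 (adjusted p = 3.5e-09). It was -0.40 ± 0.07 without methionine, -0.36 ± 0.07 without BCAA and -0.30 ± 0.07 without glucose. Ostc was lower without glutamine and without glucose, at -0.37 ± 0.09 and -0.28 ± 0.09, and the glucose call was lost on leaving out any of 4 libraries, Control replicate 2 or 3 or No Glucose replicate 1 or 2, at -0.22 to -0.27 (adjusted p = 0.054 to 0.11). The channel genes Sec61a1 and Sec61b were called in no deprivation in total RNA. The number of members called without BCAA was 15 and came to 9 without Control replicate 2. Without methionine it was 22 and came to 14 without Control replicate 3, and without arginine it was 4 and came to 2 without Control replicate 1 or No Arginine replicate 1.

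Total RNA of Hspa5 without glucose was tested directly against each other deprivation. Its total RNA without arginine stood -0.42 ± 0.08 from that without glucose, and without BCAA -0.46 ± 0.08 from that without glucose. Without glucose it stood 0.41 ± 0.08 above its level without glutamine and 0.68 ± 0.08 above that without methionine, and all 4 differences were called (adjusted p = 5.4e-07 to 0.0003). No Arginine differed from No Glucose in 10 members, against 36.9% of all genes, and No BCAA from No Glucose in 8, against 28.6%. No Glucose differed from No Glutamine in 16 members, against 32.5%, and from No Methionine in 11, against 33.8%. The other pairs of deprivations were tested too. No Arginine had 13 members higher and 4 lower than No BCAA, against 8.3% and 11.9% of all genes. Against No Glutamine it had 19 and 3 (16.7% and 19%), and against No Methionine 15 and 2 (10.8% and 14.3%). No BCAA had 2 and 2 against No Glutamine (6.77% and 7.41%) and 1 and 0 against No Methionine (6.62% and 6.71%). No Glutamine had 5 and 3 against No Methionine (12.7% and 12.7%). Pdia4, a large disulfide isomerase, was higher without glucose than without glutamine by 0.51 ± 0.07 and than without methionine by 0.43 ± 0.07. Dnajb9 was higher without glucose than without glutamine by 0.71 ± 0.11. Atf6 and Herpud1 went the other way against glutamine, at -0.35 ± 0.07 and -0.22 ± 0.06 for No Glucose against No Glutamine, while Herpud1 without arginine stood -0.72 ± 0.06 from its level without glucose.

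**Figure D2:**
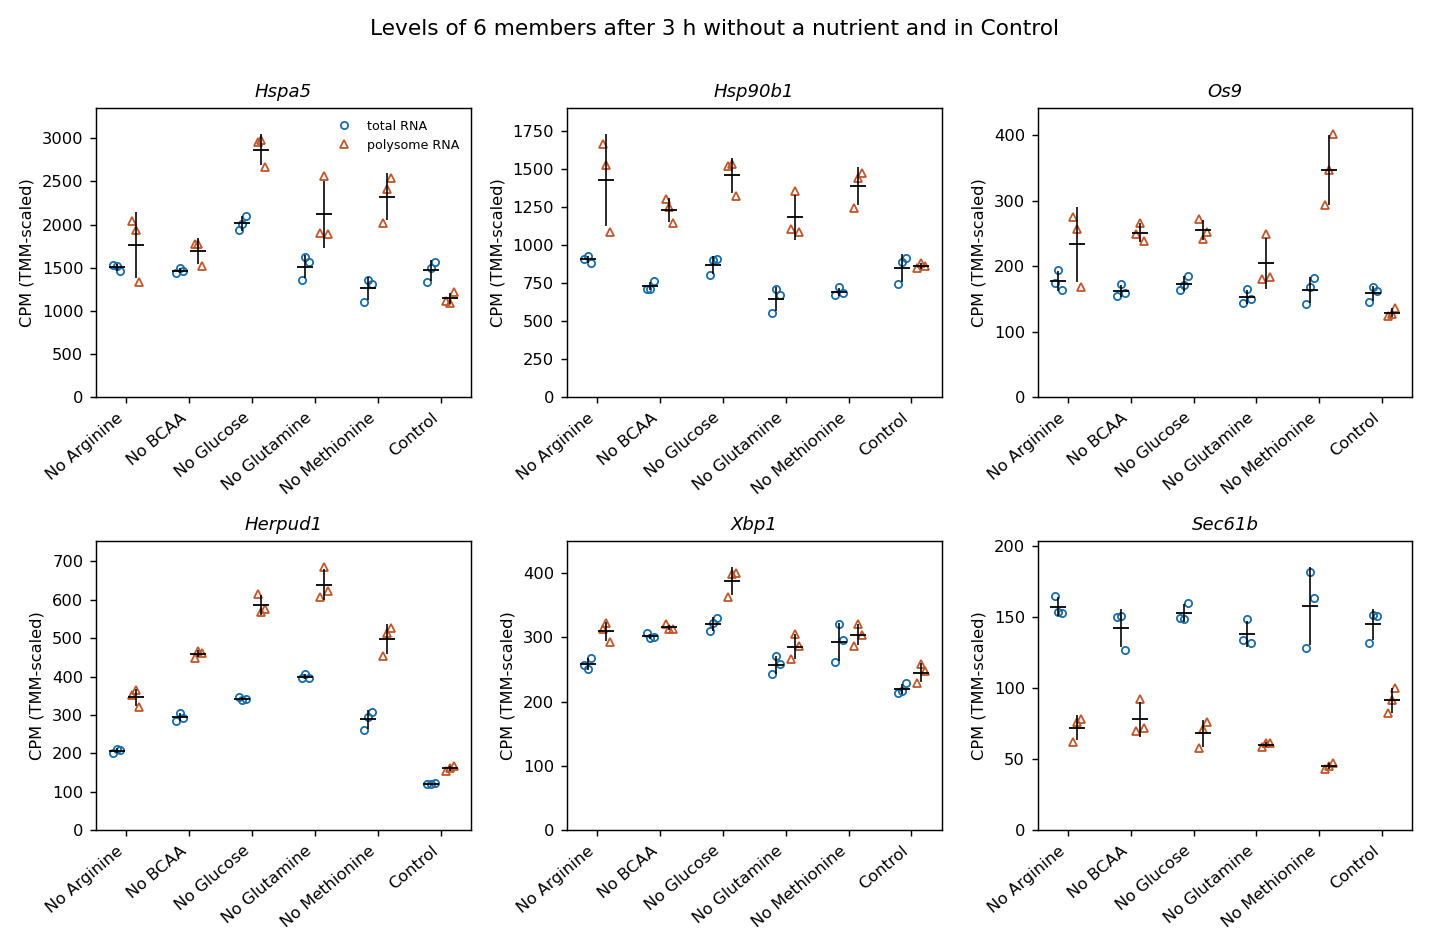
Level of 6 members in each library (CPM, TMM-scaled, axis from 0), with circles for total RNA, triangles for polysome RNA, and a dash with a bar for the mean ± SD of 3 libraries; the 5 deprivations stand left of Control. Polysome Hspa5 lies at 1330 CPM or more in every deprived library, against at most 1223 in Control, while polysome Sec61b lies lowest without methionine at 43.5 to 47.2 CPM.

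Polysome libraries were scaled like the others, so their values are shares of polysome RNA and do not show how much of a cell's RNA was on polysomes. Hspa5, Hsp90b1, Hyou1, Atf6, Xbp1, Herpud1, Syvn1 and Os9 were called higher in polysome RNA in each of the 5 comparisons, and Fkbp2 and Ostc lower in each. Without arginine 15 members were called higher and 5 lower, against 18.9% and 21.5% of all genes. Without BCAA there were 10 and 11, against 28.5% and 27.3%, and without glucose 12 and 6, against 29.6% and 29.4%. Without glutamine there were 10 and 13, against 32% and 32.3%, and without methionine 12 and 11, against 34.2% and 34.7%. In these terms the 15 of 30 members higher without arginine exceeded the background share, while the counts without BCAA and glutamine lay nearer to it. The median polysome change of the members was 0.22 without arginine, -0.03 without BCAA, 0.09 without glucose, -0.08 without glutamine and 0.07 without methionine, with medians of all genes between -0.03 and -0.01.

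Polysome Hspa5 measured 2959, 2978 and 2662 CPM without glucose, 2016, 2410 and 2537 without methionine, 1902, 2566 and 1892 without glutamine, 2037, 1939 and 1330 without arginine and 1781, 1777 and 1524 without BCAA, against 1115, 1096 and 1223 in Control. Every deprived library was above every Control library, and the third No Arginine library was the nearest to Control. The rises were 1.32 ± 0.14 without glucose (a 2.50-fold level, adjusted p = 1.7e-07), 1.02 ± 0.14 without methionine, 0.89 ± 0.14 without glutamine, 0.63 ± 0.14 without arginine and 0.57 ± 0.14 without BCAA. Hsp90b1 measured 1520, 1533 and 1325 CPM without glucose, 1665, 1523 and 1087 without arginine, 1244, 1439 and 1474 without methionine, 1302, 1247 and 1148 without BCAA and 1103, 1353 and 1088 without glutamine, against 847, 880.2 and 862 in Control. No library overlapped Control, with rises between 0.45 ± 0.12 without glutamine and 0.76 ± 0.12 without glucose. Over the same comparisons its total RNA changed by -0.40 without glutamine and 0.03 without glucose. Hyou1 polysome RNA was 609.6, 712 and 819.9 CPM without methionine, against 367, 338 and 389 in Control, a rise of 0.97 ± 0.13, with 0.45 to 0.67 in the other 4.

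Os9, Atf6, Herpud1, Xbp1 and Syvn1 rose on polysomes as well. Os9 polysome RNA measured 294, 346 and 401 CPM without methionine, 272, 242 and 252 without glucose, 250.1, 267 and 238 without BCAA, 275, 258 and 168 without arginine and 180.5, 249.9 and 183 without glutamine, against 124, 127 and 137 in Control. The groups did not overlap, and the rise was 1.43 ± 0.15 without methionine (adjusted p = 1.5e-07) and 0.66 to 0.98 in the other 4. Atf6 polysome RNA rose by 1.24 ± 0.10 without glutamine, 1.1 ± 0.10 without methionine, 1.05 ± 0.10 without BCAA, 0.95 ± 0.10 without glucose and 0.50 ± 0.10 without arginine. Herpud1 reached 608, 684 and 624 CPM in polysome RNA without glutamine and 616, 569 and 575 without glucose, against 153, 162 and 168 in Control, rises of 1.99 ± 0.08 and 1.86 ± 0.07. Xbp1 rose by 0.22 to 0.66 and Syvn1 by 0.38 to 1.04, and the Xbp1 glutamine call was lost without Control replicate 1 or No Glutamine replicate 2, at 0.18 in both cases (adjusted p = 0.052 and 0.057). Ern1 polysome RNA was higher without methionine, arginine and BCAA, at 0.55 ± 0.08, 0.33 ± 0.08 and 0.27 ± 0.08.

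The members lower on polysomes were mostly co-chaperones, prolyl isomerases and channel or transferase subunits. Sdf2l1 measured 41.6, 41.0 and 42.8 CPM without methionine, 47.4, 53.8 and 52.9 without glutamine and 51.3, 59.3 and 50.6 without BCAA, against 76.2, 96.3 and 88.7 in Control. None of these libraries reached the Control range, and the falls were -1.06 ± 0.10, -0.76 ± 0.10 and -0.70 ± 0.10. Manf was 81.1, 87.9 and 82.3 CPM without methionine, against 142, 189 and 171 in Control, a fall of -1.0 ± 0.11, and was at -0.79 and -0.76 without glutamine and BCAA. Its smaller call without arginine, -0.29 ± 0.11, was lost without any 1 of Control replicate 2 or 3 or No Arginine replicate 1, 2 or 3, at -0.16 to -0.34 (adjusted p = 0.05 to 0.33), as well as with 3 other settings. Sec61b was 43.5, 45.0 and 47.2 CPM without methionine, 58.6, 61.2 and 61.2 without glutamine, 57.9, 70.9 and 76.2 without glucose and 62.0, 76.3 and 78.2 without arginine, against 82.3, 91.6 and 100.3 in Control. It fell by 1.02 ± 0.11, 0.60 ± 0.11, 0.42 ± 0.11 and 0.34 ± 0.11 on the log2 scale, and the last call was lost without Control replicate 2 or 3 or No Arginine replicate 1, at -0.24 to -0.31 (adjusted p = 0.07 to 0.13). Ostc was lowest without glutamine, at 46.8, 57.0 and 54.7 CPM, against 94.6, 123 and 105 in Control, a fall of -1.03 ± 0.10. Fkbp2 was lowest without methionine, at 15.2, 16.0 and 17.1 CPM, against 29.9, 34.4 and 34.1 in Control, a fall of -1.03 ± 0.09. Dnajb9 was split: polysome RNA rose by 0.74 ± 0.12 without glucose and fell by 0.41 ± 0.13 without methionine, 0.33 ± 0.13 without glutamine and 0.31 ± 0.13 without BCAA. Creld2 fell in all but glucose, the lowest at -0.79 without methionine, Dnajb11 in all but arginine, the lowest at -0.73 without methionine, and Fkbp11 in all but arginine, the lowest at -0.89 without glucose. Dnajc3 and Ssr1 fell without BCAA, glutamine and methionine, by up to 0.47 and 0.64, and Edem1 without BCAA, glucose and glutamine, by up to 0.42. Pdia4 rose in all but glutamine, by up to 0.66, Sec61a1 without arginine, glutamine and methionine, by up to 0.43, Calr and Canx in 2 comparisons each and Derl1 in 2, by at most 0.34. Pdia6 rose without arginine, by 0.42, and Pdia3 rose there by 0.29 and fell without glutamine by 0.23. P4hb and Derl2 were called in no deprivation on polysomes. The count without arginine, 20, came to 13 without No Arginine replicate 1.

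Translational efficiency (TE) here is the ratio of polysome to total RNA in a deprivation over that ratio in Control, fitted as an interaction over both kinds of library. The pairing of total and polysome RNA by lysate was left out of this fit. With the lysate as a block more members were called in each deprivation, with counts given in the closing section. Hspa5, Hsp90b1, Hyou1, Atf6 and Os9 were called higher in TE in each deprivation, and Pdia4 in all but glutamine. Against this, Creld2, Dnajb11 and Sec61b were called lower in 4 of the 5, and Dnajb9, Sdf2l1, Manf and Ostc in 3. Without arginine 8 members were higher and 3 lower, against 6.78% and 9.89% of all genes. Without BCAA there were 6 and 7, against 7.97% and 18.7%, and without glucose 7 and 2, against 8.75% and 16.9%. Without glutamine there were 5 and 10, against 9.93% and 25.3%, and without methionine 11 and 10, against 19.1% and 29.8%. The median TE change of the members was 0.12 without arginine and 0.10 without methionine, where all genes had -0.04 and -0.14. It was -0.02 without BCAA, -0.001 without glucose and -0.06 without glutamine, where all genes had -0.12, -0.08 and -0.15. The 5 members called higher in TE in every deprivation had no call of a rise in total RNA beyond Hspa5 without glucose and Atf6 in 4 comparisons.

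**Figure D3:**
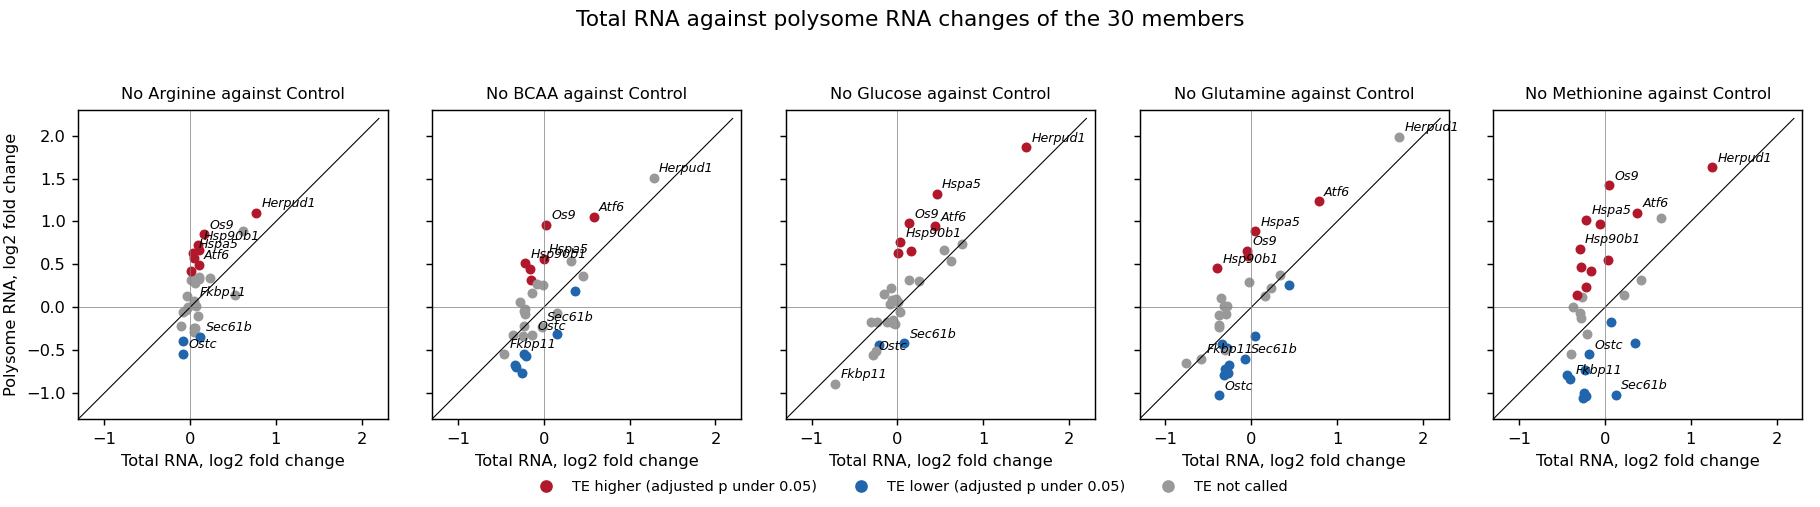
Log2 fold change in total RNA (x axis) and in polysome RNA (y axis) of the 30 members in each deprivation against Control, each from its own fit, with the diagonal of equal change; red marks members with TE called higher, blue lower and grey not called, from the fit over both kinds of library. Red points such as Os9 lie above the diagonal near 0 on the x axis, blue points such as Sec61b lie below it, and Herpud1 lies high on both axes.

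For Hspa5 the TE change was 1.15 ± 0.16 without methionine (adjusted p = 6.4e-07), 0.78 ± 0.16 without glucose, 0.70 ± 0.16 without glutamine, 0.58 ± 0.16 without arginine and 0.46 ± 0.16 without BCAA. Hsp90b1 followed with 0.89 ± 0.15 without methionine and 0.61 to 0.71 in the others. Os9 had the highest TE change of any member, 1.29 ± 0.19 without methionine (adjusted p = 1.2e-06), and Sec61b the lowest, -1.23 ± 0.16 in the same cells (adjusted p = 2.1e-07). Sec61a1, the pore of the same channel, moved the other way there, at 0.50 ± 0.14. Hyou1 was at 0.94 ± 0.16 without methionine and 0.49 to 0.54 in the others, and Atf6 at 0.63 ± 0.12 and 0.31 to 0.42. Pdia4 was at 0.66 ± 0.14 without methionine and 0.52 ± 0.13 without arginine. Sdf2l1, Manf and Dnajb9 were lowest without methionine too, at -0.89 ± 0.15, -0.84 ± 0.16 and -0.86 ± 0.17, and Ostc without glutamine, at -0.79 ± 0.15. Herpud1 was called without arginine, glucose and methionine, at 0.31, 0.28 and 0.29. Fkbp2 fell without methionine and BCAA, at -0.90 and -0.42, Derl1 without glutamine and BCAA, at -0.32 and -0.29, and Dnajc3 and Edem1 without glutamine, at -0.33 and -0.23. Without methionine Fkbp11 and Derl2 were lower, at -0.53 and -0.34, and Ern1 and Canx higher, at 0.42 and 0.37, while Pdia6 was higher without arginine and methionine, at 0.40 and 0.38. With RLE scaling and with DESeq2 Ern1 was called higher in TE in 3 further comparisons, at 0.30 without BCAA, 0.31 without glucose and 0.32 without glutamine (adjusted p = 0.021 to 0.049). Calr, Pdia3, P4hb, Xbp1, Syvn1 and Ssr1 had no TE call in any deprivation.

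These TE calls rested unevenly on single lysates. The 11 calls without arginine came to 0 without No Arginine replicate 1, to 2 without Control replicate 2, to 3 without No Arginine replicate 2 and to 7 without Control replicate 3. In those fits Hspa5 kept a value of 0.49 to 0.55 without a call where it was lost (adjusted p = 0.064 to 0.11). The 13 without BCAA came to 5 without Control replicate 2, 6 without No BCAA replicate 1 and 8 without Control replicate 3 or No BCAA replicate 2, and the Hspa5 call was lost in each, at 0.43 to 0.46 (adjusted p = 0.074 to 0.12). Atf6 lost its call without Control replicate 2 or 3 in the arginine, BCAA and glutamine comparisons, at 0.27 to 0.38 (adjusted p = 0.054 to 0.12), and without replicate 1 or 2 of each of those deprivations, at 0.24 to 0.36 (adjusted p = 0.056 to 0.17). In the glucose comparison the Atf6 call was lost without No Glucose replicate 1, at 0.36 (adjusted p = 0.054). Hyou1 lost its call without Control replicate 2 in the arginine, BCAA, glucose and glutamine comparisons, at 0.40 to 0.45 (adjusted p = 0.085 to 0.12), and Os9 in the arginine and glutamine ones, at 0.63 and 0.53 (adjusted p = 0.06 and 0.067). Hyou1 was lost as well without No BCAA replicate 1 or 2, No Glucose replicate 1 or No Glutamine replicate 2, at 0.43 to 0.50 (adjusted p = 0.053 to 0.097), and Os9 without No Glutamine replicate 2, at 0.46 (adjusted p = 0.065). The Dnajb11 call without glucose was lost without Control replicate 2 or 3 or No Glucose replicate 1 or 3, and with RLE scaling or DESeq2, at -0.23 to -0.36 (adjusted p = 0.065 to 0.25). Sec61b without arginine was lost without any 1 of the Control libraries or No Arginine replicate 1 or 2, at -0.34 to -0.54 (adjusted p = 0.052 to 0.29). Creld2 without arginine was lost without Control replicate 2 or 3 or No Arginine replicate 1, 2 or 3, at -0.24 to -0.35 (adjusted p = 0.055 to 0.23). It was also lost with RLE scaling, at -0.32 (adjusted p = 0.051). The 9 without glucose came to 3 without No Glucose replicate 1, and the 15 without glutamine to 8 without Control replicate 2 and 9 without No Glutamine replicate 2. The 21 without methionine stayed between 18 and 21 whichever library was left out. RLE scaling, which moved the median TE change of all genes without glutamine by 0.13, gave 8 members higher and 6 lower there in place of 5 and 10, while no called member changed sign.

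Methionine was tested directly against the other deprivations for TE. No Arginine differed from No Methionine in 9 members, against 23.7% of all genes, No BCAA in 3, against 14.6%, No Glucose in 8, against 29.1%, and No Glutamine in 5, against 16.7%. Sec61b and Fkbp2 stood above their TE without methionine in all 4 tests, Sec61b by 0.56 to 0.92 and Fkbp2 by 0.48 to 0.59. Os9 stood below it by 0.71 without glutamine, 0.61 without arginine and 0.52 without glucose, and Hspa5 by 0.69 without BCAA and 0.57 without arginine. For the other pairs the test of Hspa5 was not called, with -0.37 ± 0.16 for No Glucose and -0.44 ± 0.16 for No Glutamine against No Methionine.

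Summed over the 30 members, polysome RNA held 16050 ± 328 CPM without glucose, 15670 ± 2157 without arginine, 15430 ± 1407 without methionine, 13990 ± 481 without BCAA and 13740 ± 1573 without glutamine, against 12450 ± 924 in Control (SD, n = 3 each). In total RNA the sum was 11600 ± 440.0 CPM without glucose, 11250 ± 308 without arginine, 10180 ± 165 without BCAA, 9735 ± 718 without glutamine and 9594 ± 627 without methionine, against 10920 ± 838 in Control. The sums follow the members with the most counts and were not tested.

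The shares of members called with Torin1 and on polysomes with 4EGI-1 lay near those of all genes. Halofuginone raised 1 member in total RNA and lowered 0, against 0.247% and 0.0479% of all genes, and none was called in polysome RNA, against 0.0491% and 0.00818%. The 1 was Herpud1, with 131, 137 and 136 CPM in halofuginone libraries, against 100.4, 97.9 and 96.8 with DMSO. The groups lay apart, and the rise was 0.45 ± 0.07 (adjusted p = 0.0018). In polysome RNA Herpud1 measured 246, 288 and 248 CPM with halofuginone, against 177, 182 and 156 with DMSO, a value of 0.60 ± 0.12 that edgeR did not call (adjusted p = 0.12), and 3 members had an unadjusted p under 0.05 there. DESeq2 called Herpud1 and Atf6 in that comparison, at 0.59 and 0.66.

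Torin1 raised 2 members and lowered 5 in total RNA, against 13.4% and 13.4% of all genes, and raised 3 and lowered 3 in polysome RNA, against 8.41% and 8.31%. Dnajb9 total RNA was 27.1, 27.0 and 21.1 CPM with Torin1, against 12.9, 15.9 and 14.9 with DMSO, a rise of 0.78 ± 0.11 (adjusted p = 5e-05). On polysomes it was 14.1, 16.3 and 10.9 CPM, against 7.75, 5.13 and 8.21, a rise of 0.96 ± 0.24, which without Torin1 replicate 3 was 0.83 (adjusted p = 0.053). Neither pair of groups overlapped. Syvn1 rose by 0.48 ± 0.08 in total RNA. Herpud1 fell to 66.2, 64.1 and 66.1 CPM with Torin1, against 100.4, 97.9 and 96.8 with DMSO, a change of -0.59 ± 0.07 (adjusted p = 3.1e-06), and on polysomes by 0.57 ± 0.12. Creld2, Sdf2l1, Dnajb11 and Dnajc3 also fell in total RNA, by 0.49, 0.34, 0.27 and 0.24, and the Dnajb11 call was lost without DMSO replicate 4 or Torin1 replicate 4, at -0.25 and -0.22 (adjusted p = 0.063 and 0.065). The 6 polysome calls came to 1 without Torin1 replicate 3, 2 without DMSO replicate 1 and 3 without Torin1 replicate 1, and they included Os9, at 0.73 ± 0.25, only just under the threshold (adjusted p = 0.0499). Os9 measured 171, 215 and 137 CPM on polysomes with Torin1, against 72.2, 146 and 97.5 with DMSO, and the groups overlapped. Syvn1, Sec61b and Creld2, at 0.50, -0.59 and -0.45, were among the polysome calls lost without Torin1 replicate 3, where they stood at 0.37, -0.52 and -0.42.

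**Figure D4:**
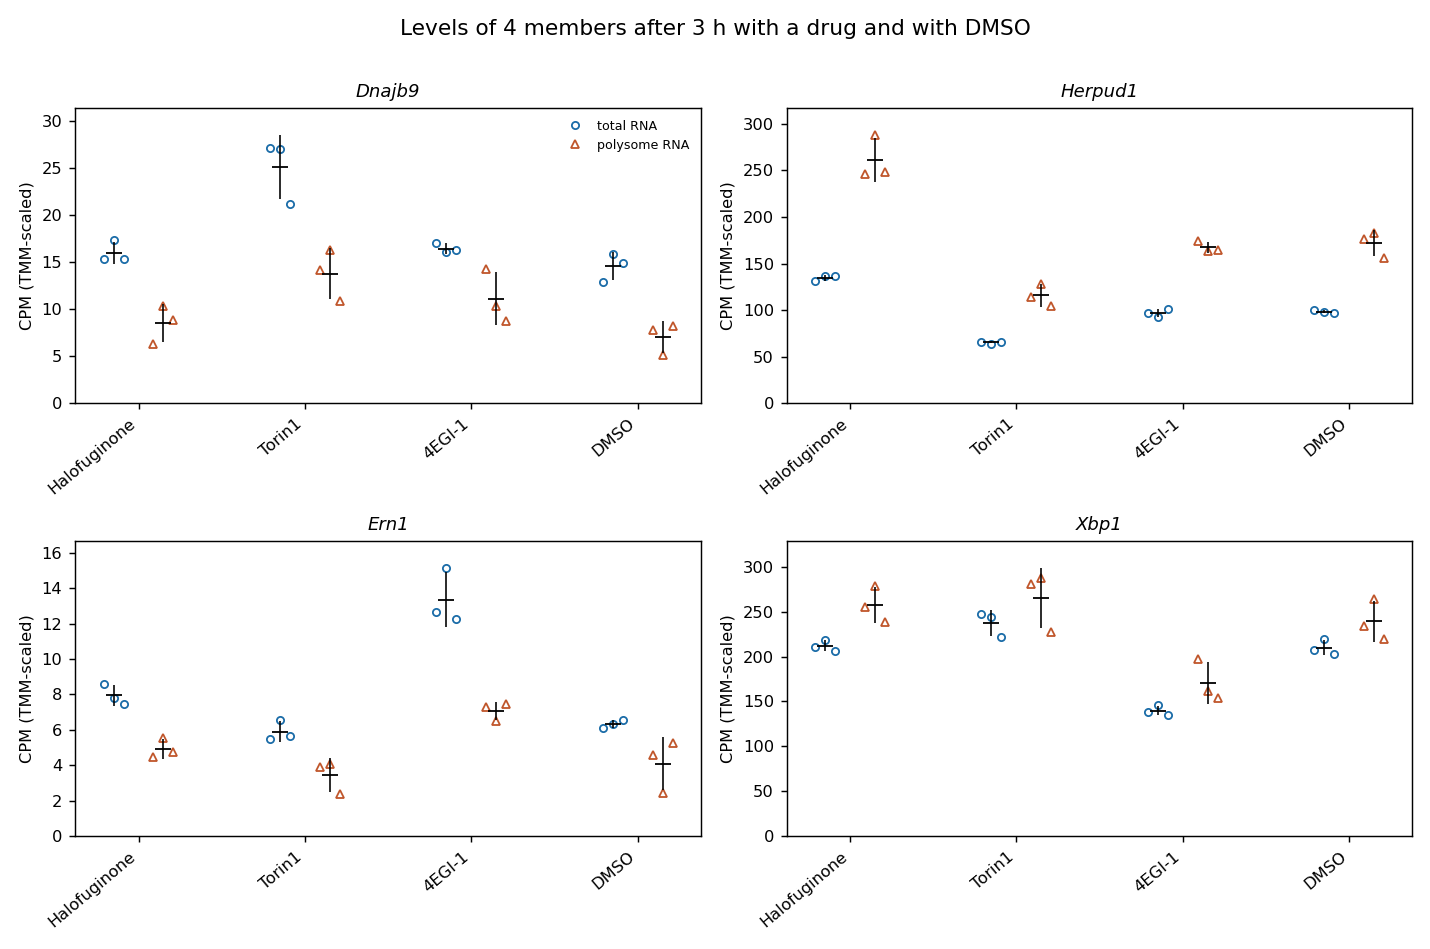
Level of Dnajb9, Herpud1, Ern1 and Xbp1 in each drug library (CPM, TMM-scaled, axis from 0), with circles for total RNA, triangles for polysome RNA and dashes with bars for the mean ± SD of 3 libraries; the 3 drugs stand left of DMSO. Ern1 total RNA lies at 12.3 to 15.1 CPM with 4EGI-1, against 6.11 to 6.55 with DMSO, and Herpud1 total RNA is lowest with Torin1.

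With 4EGI-1 the sensor Ern1 rose and Xbp1, whose mRNA it splices, fell in total RNA. In total RNA 1 member rose and 1 fell, against 14.2% and 12.3% of all genes, and in polysome RNA 3 rose and 5 fell, against 14.1% and 14.5%. Ern1 total RNA measured 12.6, 15.1 and 12.3 CPM with 4EGI-1, against 6.11, 6.32 and 6.55 with DMSO, a rise of 1.08 ± 0.13 (adjusted p = 7.3e-06). Xbp1 total RNA measured 139, 146 and 135 CPM, against 207, 219 and 203 with DMSO, a fall of -0.58 ± 0.07 (adjusted p = 5.5e-06). Neither gene's groups overlapped, and both calls held with each library left out in turn. On polysomes Ern1 was at 0.78 ± 0.26, Dnajb9 at 0.65 ± 0.24, Atf6 at 0.61 ± 0.16, Fkbp11 at -0.68 ± 0.23, Fkbp2 at -0.63 ± 0.22, Sec61b at -0.54 ± 0.17, Xbp1 at -0.49 ± 0.14 and Creld2 at -0.40 ± 0.14. These 8 calls came to 2 without DMSO replicate 3, 3 without 4EGI-1 replicate 4 and 4 without 4EGI-1 replicate 3, and without DMSO replicate 3 Ern1 stood at 0.55 (adjusted p = 0.12) and Xbp1 at -0.38 (adjusted p = 0.08). DMSO replicate 3 held 2.44 CPM of Ern1 and 24.1 of Fkbp11 on polysomes, apart from the other DMSO libraries at 4.58 and 5.28, and 14.1 and 14.9. Mitochondrial ribosomal RNA took 0.614% to 0.968% of counts in the 4EGI-1 total RNA libraries, against 0.142% to 0.207% with DMSO, and its part in these values was not tested. The 2 calls in total RNA came to 5 without 4EGI-1 replicate 2, where Hspa5, Manf and Calr were also called lower, at -0.36, -0.32 and -0.25.

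No member had a TE call with any drug. All genes called were 0% higher and 0% lower with halofuginone, 0.118% and 1.68% with Torin1, and 0.33% and 0.361% with 4EGI-1. At an unadjusted p under 0.05, 1 member passed with halofuginone, 3 with Torin1 and 4 with 4EGI-1 in edgeR, and DESeq2 called 1 with 4EGI-1. Hspa5 TE stood at -0.01 ± 0.30 with halofuginone, 0.09 ± 0.30 with Torin1 and -0.06 ± 0.30 with 4EGI-1. Atf6 was at 0.52 ± 0.18, 0.50 ± 0.18 and 0.66 ± 0.18, and with the lysate as a block Atf6 and Hyou1 were called with 4EGI-1, at 0.64 (adjusted p = 0.02) and 0.54 (adjusted p = 0.033).

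Other ER genes, 66 from 4 lists of further folding, degradation, translocation and sensor genes, are given for comparison with the members. In total RNA 7 were higher and 21 lower without glutamine, against 20.3% and 18.6% of all genes. There were 9 and 17 without glucose, against 21.7% and 19.1%, and 5 and 14 without methionine, against 19.5% and 15.6%. The counts were 7 and 10 without BCAA, against 16.4% and 13.7%, and 4 and 0 without arginine, against 5.09% and 4.14%. In TE 6 were higher and 32 lower without glutamine, against 9.93% and 25.3% of all genes. There were 5 and 21 without glucose, against 8.75% and 16.9%, and 14 and 32 without methionine, against 19.1% and 29.8%. The counts were 5 and 16 without BCAA, against 7.97% and 18.7%, and 4 and 12 without arginine, against 6.78% and 9.89%. Among the 17 other folding genes, Ganab, the catalytic subunit of glucosidase II, was highest in TE without methionine at 1.06 ± 0.18, and Ppib, a prolyl isomerase, was lowest at -0.98 ± 0.14. Prkcsh, the other glucosidase II subunit, led polysome RNA there at 1.35 ± 0.15. Among the 15 other degradation genes the highest TE without methionine was that of Vcp, the ATPase that extracts proteins from the membrane, at 1.18 ± 0.25, and the lowest that of Aup1 at -1.0 ± 0.14. Among the 28 other translocation genes Stt3a, a catalytic oligosaccharyltransferase subunit, stood highest at 0.76 ± 0.14, and Spcs1, a small signal peptidase subunit, lowest at -1.51 ± 0.15. Of the 6 other sensors and ER-bound factors, 1 was called in TE in any deprivation, Eif2ak3 without methionine at 0.26 ± 0.10.

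Genes downstream of PERK and Atf4 were listed apart from the folding genes: Atf4, Ddit3, Atf3, Ppp1r15a, Trib3, Chac1, Sesn2, Nupr1 and Asns. Of these 9, 8 were higher in total RNA without arginine, against 5.09% of all genes, and 9 in each other deprivation, against 16.4% to 21.7%. All 9 were higher in polysome RNA in each deprivation, against 18.9% to 34.2% of all genes. Ddit3 rose by 3.55 ± 0.07 without glutamine, 3.27 ± 0.07 without BCAA, 3.02 ± 0.07 without methionine, 2.89 ± 0.07 without glucose and 1.24 ± 0.07 without arginine in total RNA, while Atf4 rose by 0.37 to 0.77. With halofuginone 6 of the 9 were higher in total RNA, against 0.247% of all genes, Ddit3 by 0.85 ± 0.09 and Atf4 by 0.49 ± 0.06. With Torin1 none of the 9 was higher and 4 were lower, against 13.4% and 13.4% of all genes, Atf4 by 0.58 ± 0.06. Eif2ak3, the gene of PERK itself, is on the list of other sensors and is named here after its values were seen. With Torin1 it rose by 0.36 ± 0.11 in total RNA (adjusted p = 0.022) and 0.81 ± 0.15 in polysome RNA (adjusted p = 0.0011). It was called higher elsewhere too, on polysomes with 4EGI-1 at 0.62 ± 0.15 and without methionine at 0.20 ± 0.08. Without arginine it rose by 0.23 in total RNA and 0.41 in polysome RNA, and without glucose by 0.19 and 0.39. Its remaining changes in total and polysome RNA were not called. With 4EGI-1 6 of the 9 were higher in total RNA, against 14.2% of all genes, Ddit3 by 0.89 ± 0.09 and Atf4 by 0.18 ± 0.06 (adjusted p = 0.032), while Herpud1 stood at -0.02 ± 0.07 with no call.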

How the data were processed

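Polysome RNA and total RNA of activated mouse CD8+ T cells were sequenced in 60 libraries, of 78 in the labels; the 18 monosome libraries were not analysed here. The deposited values are raw counts per gene, and per the submitters' processing notes the tools were FastQC, MultiQC, Trimmomatic, STAR, HTSeq and edgeR with the genome build GRCm39; their versions and settings are not given in the sources used here. Of the 14695 genes, 449 had no symbol. Per the labels' protocols fractions 9 to 13 were pooled as polysome RNA, and a spike-in was added that was not used here.

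Samples were grouped by their labels. Counts were filtered with filterByExpr (minimum count 10), scaled by TMM and tested with edgeR 4.0.16 (glmQLFit, robust, glmQLFTest) in R 4.3.3, with Benjamini-Hochberg adjustment over all genes and a threshold of 0.05. Total and polysome RNA of each experiment were fitted apart, over all groups of the experiment, and TE as the interaction in a joint fit without the lysate pairing. The standard error is the log2 fold change over the root of F. The depth of each kind of library is given above. On simulated counts for No Glucose total RNA, 77.8% of 99 genes changed by 1 (log2) and 53% of 100 changed by 0.5 were called, with 0.0488% of 12296 unchanged genes. In the data 5163 genes were called in that comparison, far more than were changed in the simulation. The adjustment over all genes therefore differs, and these shares do not carry over to the reported tests. Polysome RNA and TE were not simulated.

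The members and lists were chosen with earlier results of these data known. Any member could be named. Values per library were to be given for up to 4 called members per direction and comparison by size of change, and for Hspa5, Xbp1, Atf6 and Ern1. They are printed above for only part of these. Other genes were named only as the highest or lowest called gene of a list, besides Ddit3, Atf4, Eif2ak3 and the CD8 T cell markers. It is not known whether replicate numbers pair libraries within a kind of RNA. Residuals of same-numbered libraries correlated between -0.2012 and 0.3428. Total and polysome RNA of 1 lysate are paired by the protocol, and their residuals correlated between -0.03153 and 0.3081. These correlations cannot decide the pairing, since known pairs had values in the same range. Alternatives were RLE scaling, no filter, leaving out ribosomal and abundant non-coding entries, DESeq2 1.42.0, the replicate or lysate block, and each library left out in turn.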

Additional observations from a re-analysis of the deposited data

How the results depend on the processing

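None of the 320 called values of members turned its sign with RLE scaling, with DESeq2 or without ribosomal and abundant non-coding entries. Under the other alternatives the sign was checked only for the largest called changes and for Hspa5, Xbp1, Atf6 and Ern1. No called value among those turned. Tests between 2 deprivations or 2 drugs were not checked for sign. Of 294 counts of called members recomputed, 263 stayed within 1.5 times the reported count and 31 did not. Single members were followed in 227 values, for up to 4 called members per direction and comparison and for Hspa5, Xbp1, Atf6 and Ern1. Calls gained by members outside these are not counted. Among the recomputed values of the members followed, 144 lost their call under an alternative, 15 gained one and 2272 kept their side of the threshold. In 3 more, values with no call changed sign: Ern1 total RNA without methionine stood at -0.05 without No Methionine replicate 1, and without DMSO replicate 3 Hspa5 polysome RNA stood at 0.28 with Torin1 and 0.05 with 4EGI-1. By plain library totals the summed polysome level without glucose and without BCAA moved by more than its SD.

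With the replicate number as a block, Torin1 total RNA gave 11 called members in place of 7 and 4EGI-1 total RNA 4 in place of 2; the block moved no other count by over 1.5 times. Whether the numbers pair these libraries is not known. With the block Derl1, Hyou1, Os9 and Xbp1 were added in Torin1 total RNA, and with 4EGI-1 Hspa5 was called in total RNA, at -0.31 (adjusted p = 0.017), and polysome RNA, at -0.51 (adjusted p = 0.045), while the Dnajb9 polysome call was lost, at 0.67 (adjusted p = 0.093). In 4EGI-1 total RNA the block also added Manf, at -0.27 (adjusted p = 0.031). Having no filter and DESeq2 also gave 4 there, and DESeq2 gave 1 higher and 3 lower. No filter added Manf, at -0.25 (adjusted p = 0.043), and Creld2. DESeq2 added Manf, at -0.24 (adjusted p = 0.049), and Syvn1. In halofuginone polysome RNA DESeq2 gave 2 in place of 0. In TE, 4EGI-1 had 2 with the lysate as a replicate block and 1 with DESeq2, in place of 0, and No Glutamine against No Methionine had 3 with RLE scaling in place of 5. With the lysate block the TE calls were 16 without arginine, 16 without BCAA, 12 without glucose, 17 without glutamine and 24 without methionine. RLE scaling split the TE calls into 7 higher and 5 lower without BCAA, 8 and 1 without glucose, and 5 and 4 for No Arginine against No Methionine, where the reported splits were 6 and 7, 7 and 2, and 7 and 2; DESeq2 also gave 7 and 5 without BCAA.

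With each library left out in turn, the called members in total RNA ranged over 2 to 3 without arginine, 9 to 17 without BCAA, 14 to 23 without methionine and 2 to 5 with 4EGI-1. In polysome RNA they ranged over 13 to 18 without arginine, 1 to 5 with Torin1 and 2 to 8 with 4EGI-1. In TE they ranged over 0 to 11 without arginine, 5 to 13 without BCAA, 3 to 8 without glucose, 8 to 15 without glutamine and 18 to 21 without methionine.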
